A study of Mus musculus with 20 samples.

Results

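The genes described here are 39 genes that type I interferon induces, read in monocytes and microglia of the mouse brain after stroke. They were taken by symbol from a list of known interferon-stimulated genes, with no cut on their values in these samples. The list was chosen with earlier results of these data known. All 39 were found among the 16536 genes of the GFP table and among the 16140 genes of the Cre table, which are the 2 deposited tables. A minimum level of 10 in at least 4 GFP or 3 Cre libraries left 35 of the 39 for testing in the GFP table (Cmpk2, Isg15, Oas3 and Ifi44 did not reach it) and 39 of 39 in the Cre table. In the Cre table, each member called different between populations by limma was higher in monocytes. They were Irf7, Rsad2 and Samhd1 in both genotypes, and 6 more in 1 genotype each. Each genotype had 6 of 39 called, against 3.46% of all tested genes called higher in control and 3.85% in knockout animals. In the GFP table limma called none of the 35 tested members, where 0.415% of all tested genes were called higher. No member was called between knockout and control animals, where 0.0402% of all tested genes were called in monocytes and 0.0322% in microglia.

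RNA of sorted brain cells was sequenced 3 days after permanent photothrombosis, in which light and a photosensitive dye occlude vessels of the cortex as a model of stroke. Cxcr4-GFP mice, in which GFP reports the chemokine receptor Cxcr4, gave 4 microglia libraries (GFP-negative) and 4 monocyte libraries (GFP-positive), 1 of each from every animal or pool (2 mice, 5 mice, 1 mouse and 1 mouse for libraries 1 to 4). The Cxcr4CreER line, whose Cre recombinase follows Cxcr4 expression and acts after tamoxifen, gave 3 libraries each of TdT-negative microglia and TdT-positive monocytes from Cxcr4CreER control mice and from Cxcr4CreER knockout (KO) mice, 1 mouse per library. In the Cre table, control microglia 1 and control monocytes 1 came from the same mouse, as did control microglia 3 and control monocytes 3, KO microglia 2 and KO monocytes 1, and KO microglia 3 and KO monocytes 3. Controls and KO animals share the CreER allele and the stroke, and no library of an uninjured brain was analysed here. Population and reporter signal coincide in both tables, so the effect of population and of the sort by reporter cannot be told apart. The labels do not say whether Cxcr4 was removed in the TdT-negative microglia of KO mice, give no age, sex or tamoxifen schedule, and do not explain the tag BrKo in the titles of the GFP libraries.

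Values are normalized counts, that is reads per gene after division by a size factor for each library. The tables were normalized separately, so no level is compared between them, and no level is compared between genes. Cre libraries held 9.73 to 56.8 M reads and 10350 to 13316 detected genes. GFP libraries held 0.617 to 14.9 M reads, with 10422 to 14498 detected genes in 5 libraries but 5598, 3489 and 3029 in GFP microglia 3, GFP microglia 4 and GFP monocytes 3. As a check of the labels, Cxcr4 stood at 0 to 7.88 in the 6 Cre microglia libraries, at 1183, 1332 and 1166 in control monocytes and at 784, 1010.3 and 536 in KO monocytes. The KO minus control difference of Cxcr4 in monocytes was -0.70 on the log2 scale (SE 1.10, limma adjusted p 0.962), and the counts per gene cannot tell which exons were deleted. GFP microglia held 0 to 10.3 of Cxcr4 and GFP monocytes 1266 to 3017. The 8 microglia markers (among them P2ry12 and Tmem119) summed to 170882 to 282568 in Cre microglia and to 19470.4 to 34629 in Cre monocytes. The 8 monocyte markers (among them Ccr2 and Ly6c2) summed to 381 to 2769 in Cre microglia and to 53081 to 110264 in Cre monocytes. The 8 neutrophil markers (among them S100a8 and Ly6g) summed to 908 to 4030.0 in Cre microglia and to 17926 to 71735 in Cre monocytes, with Ly6g at 0 in all microglia libraries of both genotypes. In the GFP table the neutrophil sums of the populations overlapped, at 892 to 1459.8 in microglia and 418 to 1573 in monocytes. The genes behind these sums differed. Retnlg, Ly6g and Camp were at 0 in all GFP microglia libraries, while each of the 8 was detected in at least 1 GFP monocyte library. Only 1 of the 8 passed the minimum level there. The part of these other cells in the results below was not tested.

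Type I interferons are secreted proteins that warn cells of viruses or of misplaced nucleic acid. They bind the receptor Ifnar1/Ifnar2, whose kinases Jak1 and Tyk2 phosphorylate Stat2. A complex that holds Stat2 and Irf9 then binds the interferon-stimulated response element (ISRE) in the promoters of many genes, while interferon gamma acts through the gamma-activated site (GAS). The products sense viral RNA, degrade it, block its translation or tag proteins with Isg15, and Irf7 feeds back by driving further interferon production. In the brain, both microglia and monocytes that enter after injury can run this programme.

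The response elements named above were searched for in the promoters of these genes. RefSeq promoter windows (GRCm38.p6, from 250 bases before the transcript start to 50 bases from it) matched 30 of the 39 members. The ISRE was searched as GAAANNGAAA and, for the other strand, TTTCNNTTTC, counting overlapping matches. It was found in 15 of the 30 (50%), against 376 of 9480 other genes of the Cre test with a window (3.97%) and 3.99% of all 27025 genes with a window. The GAS, TTCNNNGAA, which reads the same on both strands, was found in 9 of 30 (30%) and in 8.33% of the other tested genes. A match describes the letters only, and a window without a match says nothing of the factor. The following 30-base stretches are shown because they carry the match in 1 member of each role with a match; the matched bases are in capitals, each sequence runs 5′ to 3′ on the strand of its gene, and Ddx58 and Rsad2 are the members with a match that were called in control animals.
Stat2, signalling, chr10:128270266-128270295 (+): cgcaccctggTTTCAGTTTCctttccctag
Ddx58, RNA sensor, chr4:40239804-40239833 (-): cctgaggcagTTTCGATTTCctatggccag
Oas3, OAS family, chr5:120777715-120777744 (-): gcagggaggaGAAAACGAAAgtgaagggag
Ifit1, IFIT family, chr19:34640785-34640814 (+): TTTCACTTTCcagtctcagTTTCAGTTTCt
Rsad2, antiviral effector, chr12:26456553-26456582 (-): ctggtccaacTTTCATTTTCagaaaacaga
Isg15, ubiquitin-like modifier, chr4:156200871-156200900 (-): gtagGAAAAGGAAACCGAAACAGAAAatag
Gbp2, guanylate-binding protein, chr3:142620594-142620623 (+): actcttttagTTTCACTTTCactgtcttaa
The Ifit1 stretch holds 2 matches 9 bases apart, and the Isg15 stretch holds 3 overlapping ones, which makes 1 run of GAAA repeats. The match of Ddx58 lies just after the transcript start, and the others printed lie upstream of it. Of the 9 members called below within a single genotype, Rsad2, Ddx58 and Oas3 had an ISRE match; Irf7, Samhd1, Trim25, Herc6 and Oasl2 had a window without one, and Mx1 had no window.

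The first comparison asked how monocytes differed from microglia of injured brains within each genotype. Only some of these libraries shared a mouse, as listed above, and the main fit did not pair them. In control animals 6 of 39 members rose in monocytes (limma, adjusted p under 0.05 by Benjamini-Hochberg over 12432 genes), against a background of 3.46% of tested genes called higher. In KO animals 6 of 39 rose, against 3.85%. None was called lower in either genotype, and none was lower at an unadjusted p under 0.05; edgeR and DESeq2 also called none lower. The log2 difference was positive for 37 of 39 members in control animals, with a median of 1.07 against -0.24 over all tested genes, and for 34 of 39 in KO animals, with a median of 1.22 against -0.25. In bulk samples a lower share of responding cells and less RNA per cell cannot be told apart. Irf7, Rsad2 and Samhd1 were called in both genotypes, Trim25, Ddx58 and Herc6 in control animals, and Oas3, Oasl2 and Mx1 in KO animals.

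**Figure D1:**
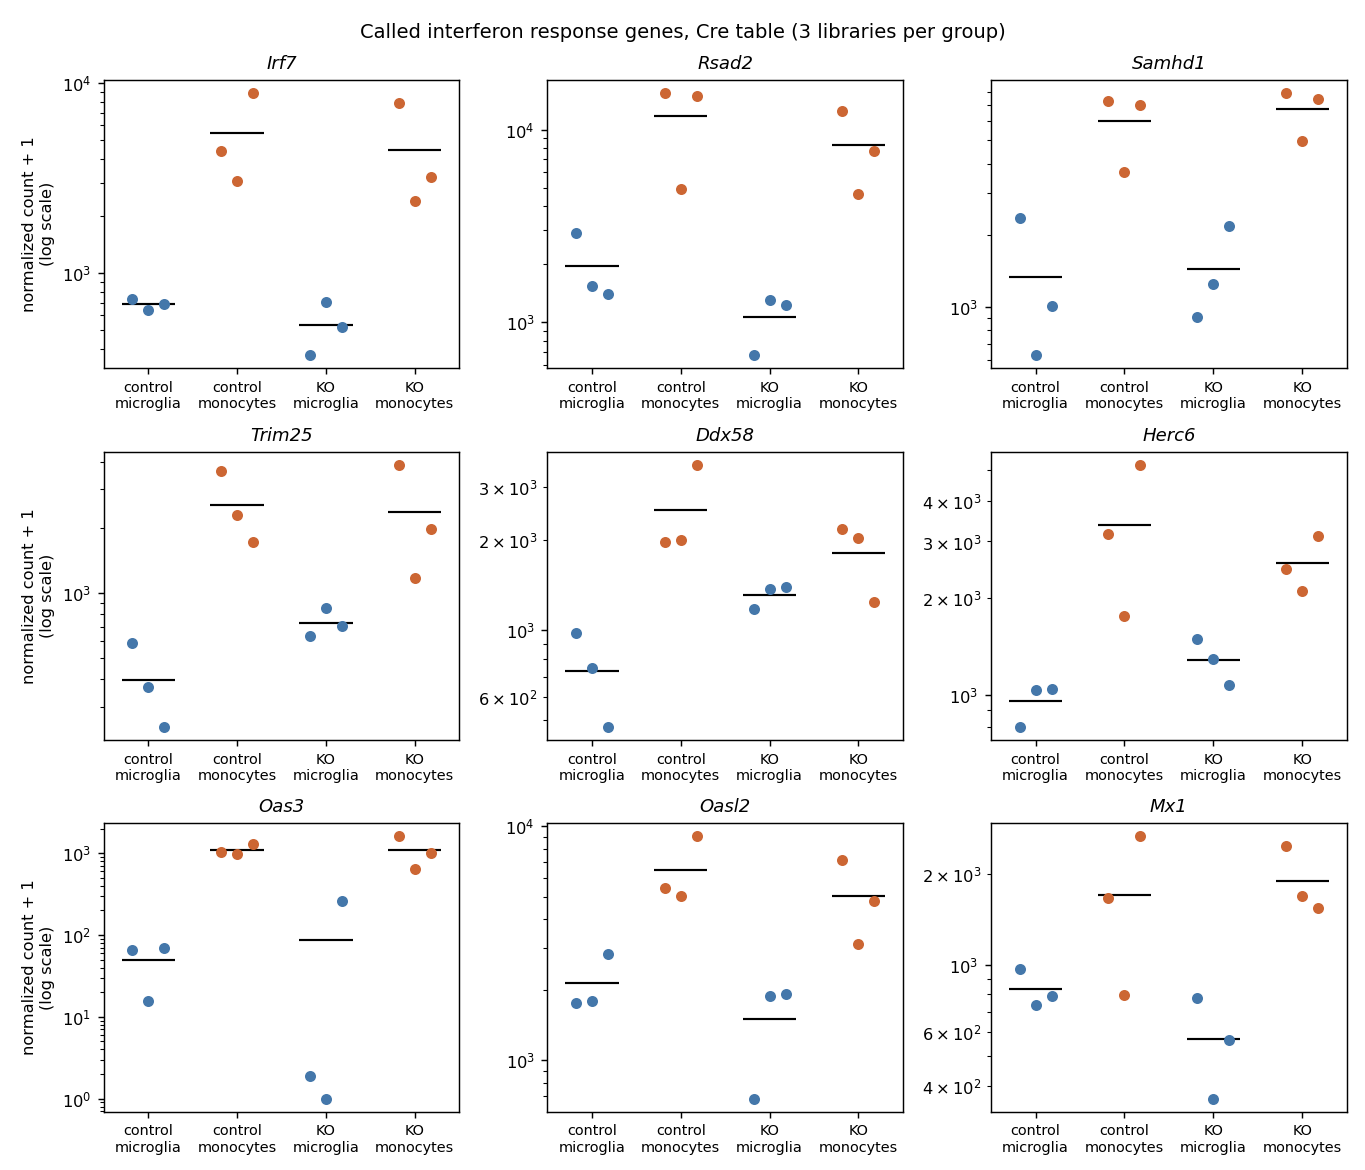
Normalized count + 1 (log scale) of the 9 called members in each library of the Cre table; points are libraries (blue microglia, orange monocytes, in the order 1 to 3) and bars are arithmetic means of 3 libraries. Irf7, Rsad2, Samhd1, Oas3, Oasl2, Trim25 and Herc6 have every monocyte library above every microglia library of the same genotype, while Ddx58 overlaps in KO animals and Mx1 in control animals.

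Among the signalling genes and transcription factors, Irf7 had the smallest adjusted p of all members in both genotypes. Irf7 encodes the factor that amplifies interferon production and is itself induced by interferon. In control animals its normalized counts were 733, 637 and 690.2 in microglia and 4392, 3042 and 8893 in monocytes. In KO animals they were 370.2, 708 and 518 in microglia and 7828, 2385 and 3194 in monocytes. Every monocyte library lay above every microglia library, with monocytes 3 highest in controls and monocytes 1 highest in KO animals. The log2 differences were 2.84 (SE 0.50, limma adjusted p 0.00566) and 2.92 (SE 0.50, adjusted p 0.0048). Stat2 and Irf9, which form the complex that binds the ISRE, were not called, at 0.17 and 0.06 in control animals and 0.73 and 0.80 in KO animals, and Irf1 stood at 0.65 and 0.64.

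Of the 6 sensors of RNA and DNA, Ddx58 was called in control animals, and none was called in KO animals by limma, edgeR or DESeq2 or had an unadjusted p under 0.05 there. Ddx58 encodes RIG-I, which detects viral RNA ends. It stood at 973, 745 and 475 in control microglia and at 1956, 1997 and 3552 in control monocytes, a log2 difference of 1.78 (SE 0.39, adjusted p 0.0187), whose call was lost without control microglia 3 or control monocytes 3. The KO values of Ddx58 were 1172, 1366 and 1385 in microglia and 2161, 2025 and 1234 in monocytes, a log2 difference of 0.43 (SE 0.39, adjusted p 0.623). The control groups were apart, whereas KO monocytes 3 fell within the range of KO microglia. Ifih1, the sensor of long double-stranded RNA, differed by 1.34 and 1.26 and did not pass, and Adar, which edits double-stranded RNA, by -0.85 and -0.98, with 95% intervals of -3.80 to 2.10 and -3.93 to 1.98. Eif2ak2, the kinase that halts translation on double-stranded RNA, stood at 0.10 in control and -0.43 in KO animals.

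The OAS family, which makes the messenger that activates RNase L, had 5 of 5 members positive in both genotypes, and 2 of 5 were called in KO animals. In control animals limma and edgeR called none, 3 of 5 had an unadjusted p under 0.05, and DESeq2 called Oas1a, Oas3 and Oasl2. Oas3 stood at 64.7, 14.8 and 67.5 in control microglia and at 1037, 988 and 1284 in control monocytes. KO microglia held 0.912, 0 and 257 of Oas3 and KO monocytes 1603, 648 and 998. Both genotypes were apart without overlap, and KO microglia 3 stood far above the other KO microglia libraries. The log2 differences of Oas3 were 4.73 (SE 1.66, adjusted p 0.13) in control and 7.0 (SE 1.66, adjusted p 0.0259) in KO animals. Because 2 KO microglia libraries were near 0, the size of the second depends on the pseudocount: with 10 in place of 1 it was 5.06, and edgeR and DESeq2 gave 3.69 and 3.65 with adjusted p of 0.253 and 0.0681.

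Oasl2, an OAS-like protein with a ubiquitin-like tail, stood at 1761, 1788 and 2831 in control microglia and at 5438, 5025 and 9034 in control monocytes. KO animals held Oasl2 at 684, 1872 and 1922 in microglia and at 7143, 3126 and 4768 in monocytes. Neither genotype overlapped. The log2 differences were 1.60 (SE 0.46, adjusted p 0.0611) and 1.81 (SE 0.46, adjusted p 0.0343), so that a call in KO and none in control animals went with nearly equal sizes. Oas1a differed by 1.91 and 1.99 and Oasl1 by 2.11 and 1.32, none of them called by limma or edgeR, while DESeq2 called Oas1a in both genotypes and Oasl1 in neither. In KO animals the call of Oasl2 was lost without microglia 1 or 2 or without monocytes 1 or 3, and that of Oas3 without any of these or monocytes 2. How the authors' counting divided reads between Oas1a and its near-identical tandem copies is not given in the sources used here.

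None of the 3 IFIT genes, whose products bind foreign RNA caps and ends, was called in either genotype by limma, edgeR or DESeq2; 1 of 3 had an unadjusted p under 0.05 in KO animals and none in control animals. Ifit1 stood at 1401, 1676 and 4936 in control microglia and at 13872, 1720.5 and 14743 in control monocytes. KO animals held Ifit1 at 2056, 1997 and 1757 in microglia and at 11989.9, 3375 and 6235 in monocytes. Control monocytes 2 lay at the level of control microglia 1 and 2, while the other control monocyte libraries were the highest of the table. The log2 differences of Ifit1 were 1.64 (SE 0.77, adjusted p 0.272) and 1.71 (SE 0.77, adjusted p 0.251), and without control monocytes 2 Ifit1 was called in control animals. Ifit2 and Ifit3 stood between 0.60 and 1.0; Ifit3 shares most of its sequence with Ifit3b, and the division of their reads is not known here.

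Of the antiviral effectors, 2 of 5 were called in control and 3 of 5 in KO animals. Rsad2 encodes viperin, an enzyme that makes a chain-terminating nucleotide. In control animals Rsad2 stood at 2919, 1541 and 1402 in microglia and at 15507, 4889 and 14975 in monocytes. Rsad2 in KO animals stood at 675, 1301 and 1224 in microglia and at 12468, 4607 and 7775 in monocytes. Monocytes were above microglia in every library of both genotypes, with the lowest monocyte library of each, number 2, still above the highest microglia library. The log2 differences were 2.50 (SE 0.52, adjusted p 0.0133) and 2.90 (SE 0.52, adjusted p 0.00581); the control call was lost without control monocytes 1, control monocytes 3 or control microglia 3. The promoter of Rsad2, the gene with the smallest adjusted p among called members with an ISRE match, is given for the 250 bases upstream of its start, with the match in capitals.
Rsad2, chr12:26456453-26456702 (-): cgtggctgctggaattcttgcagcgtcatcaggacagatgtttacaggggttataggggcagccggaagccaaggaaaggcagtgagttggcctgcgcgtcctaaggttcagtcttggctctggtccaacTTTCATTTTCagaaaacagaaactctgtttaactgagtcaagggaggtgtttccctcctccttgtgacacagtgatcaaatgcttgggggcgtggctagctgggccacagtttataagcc

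Samhd1, which lowers the nucleotide pool that viruses copy from, stood at 2367, 630.2 and 1011 in control microglia and at 7312, 3671 and 7012 in control monocytes. KO animals held Samhd1 at 913, 1254 and 2189.7 in microglia and at 7906, 4988 and 7443 in monocytes. All monocyte libraries were above all microglia libraries, and the log2 differences were 2.32 (SE 0.50, adjusted p 0.0159) and 2.29 (SE 0.50, adjusted p 0.0172). These calls rested on most of the libraries: each was kept in 2 of 6 fits that left out 1 library, and was lost without monocytes 1, monocytes 3, microglia 2 or, in control animals, microglia 3 and, in KO animals, microglia 1. Mx1, a GTPase that traps viral particles, stood at 965, 736 and 789 in control microglia and at 1657, 797 and 2651 in control monocytes, where monocytes 2 fell within the microglial range. In KO animals Mx1 stood at 779.6, 361 and 563 in microglia and at 2457, 1690.1 and 1541 in monocytes, which did not overlap. Its log2 differences were 0.88 (SE 0.48, adjusted p 0.345) and 1.78 (SE 0.48, adjusted p 0.0453), and the second was lost with the animal as replicate block (adjusted p 0.053) and without any 1 of the 6 KO libraries. Bst2, the tether of budding virus, differed by 0.97 and 0.95 and Cmpk2 by 2.09 and 0.77, with no call by limma or edgeR; DESeq2 called Cmpk2 in control animals.

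In the group of Isg15 and the ubiquitin enzymes, 2 of 5 members were called in control and none in KO animals, although 4 of 5 had an unadjusted p under 0.05 in each genotype. DESeq2 called Isg15, Trim25 and Usp18 in KO animals and edgeR none of the 5 there. In control animals DESeq2 called Isg15, Trim25 and Herc6, and edgeR called Trim25 and Herc6. Trim25, the ligase that activates RIG-I, stood at 585, 369 and 241 in control microglia and at 3658, 2280.1 and 1716 in control monocytes. Trim25 in KO animals stood at 636, 854 and 702 in microglia and at 3903, 1178 and 1979.5 in monocytes. No library overlapped in either genotype, and the log2 differences were 2.70 (SE 0.51, adjusted p 0.0078) and 1.52 (SE 0.51, adjusted p 0.105).

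Herc6, the mouse ligase that attaches Isg15 to proteins, stood at 798, 1038 and 1045 in control microglia and at 3162, 1758 and 5191 in control monocytes. In KO animals it stood at 1492, 1292 and 1075 in microglia and at 2469, 2105 and 3126 in monocytes, again with no overlap. Its log2 differences were 1.69 (SE 0.39, adjusted p 0.0235) and 0.99 (SE 0.39, adjusted p 0.18), and the control call was kept only in the fit without control monocytes 2 among the 6 that left out 1 library. Isg15 itself stood at 1105, 1044 and 1762 in control microglia and at 5875, 2012 and 6344 in control monocytes. The difference of Isg15 was 1.73 in control (adjusted p 0.0946) and 1.66 in KO animals (adjusted p 0.106). Usp18, which removes Isg15 and damps the receptor, differed by 1.22 and 1.47.

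No guanylate-binding or PARP gene was called. None of the 3 guanylate-binding genes, which act on vacuoles that hold pathogens, had an unadjusted p under 0.05 in either genotype, and edgeR and DESeq2 called none. Gbp3 stood at 1317, 564 and 1173 in control microglia and at 1617, 3052 and 1630.3 in control monocytes, which were apart, but at 869, 1089 and 1759 in KO microglia and 1419.6, 279 and 1571 in KO monocytes, which overlapped. The log2 differences of Gbp3 were 1.07 (SE 0.64, adjusted p 0.401) and -0.47 (SE 0.64, adjusted p 0.767), and those of Gbp2 were 0.13 and 0.15. Parp14, which adds ADP-ribose to proteins, stood at 1780.3, 1679 and 2275 in control microglia and at 4121, 2418 and 2708 in control monocytes. In KO animals Parp14 stood at 1126, 2091 and 1783 in microglia and at 3358, 1129.5 and 2644 in monocytes, with overlap. Its differences were 0.66 (SE 0.43, adjusted p 0.437) and 0.42 (SE 0.43, adjusted p 0.665), and Parp9 stood at -0.30 and -0.52.

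The 6 other induced genes were positive in both genotypes, with 2 of 6 at an unadjusted p under 0.05 in control and 5 of 6 in KO animals, and none called by limma or edgeR; DESeq2 called Rtp4 and Sp100 in KO animals. Sp100, a nuclear body protein, stood at 4100.0, 1377 and 3409 in control microglia and at 4559, 6581 and 6604 in control monocytes. In KO animals it stood at 2687, 2591 and 2669.7 in microglia and at 6737, 6272 and 5557 in monocytes. The populations were apart in both genotypes, with a log2 difference of 1.12 (SE 0.36, adjusted p 0.1) and 1.22 (SE 0.36, adjusted p 0.0712). Rtp4 differed by 0.90 and 1.28, and Ifi44 by 3.07 and 4.55.

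**Figure D2:**
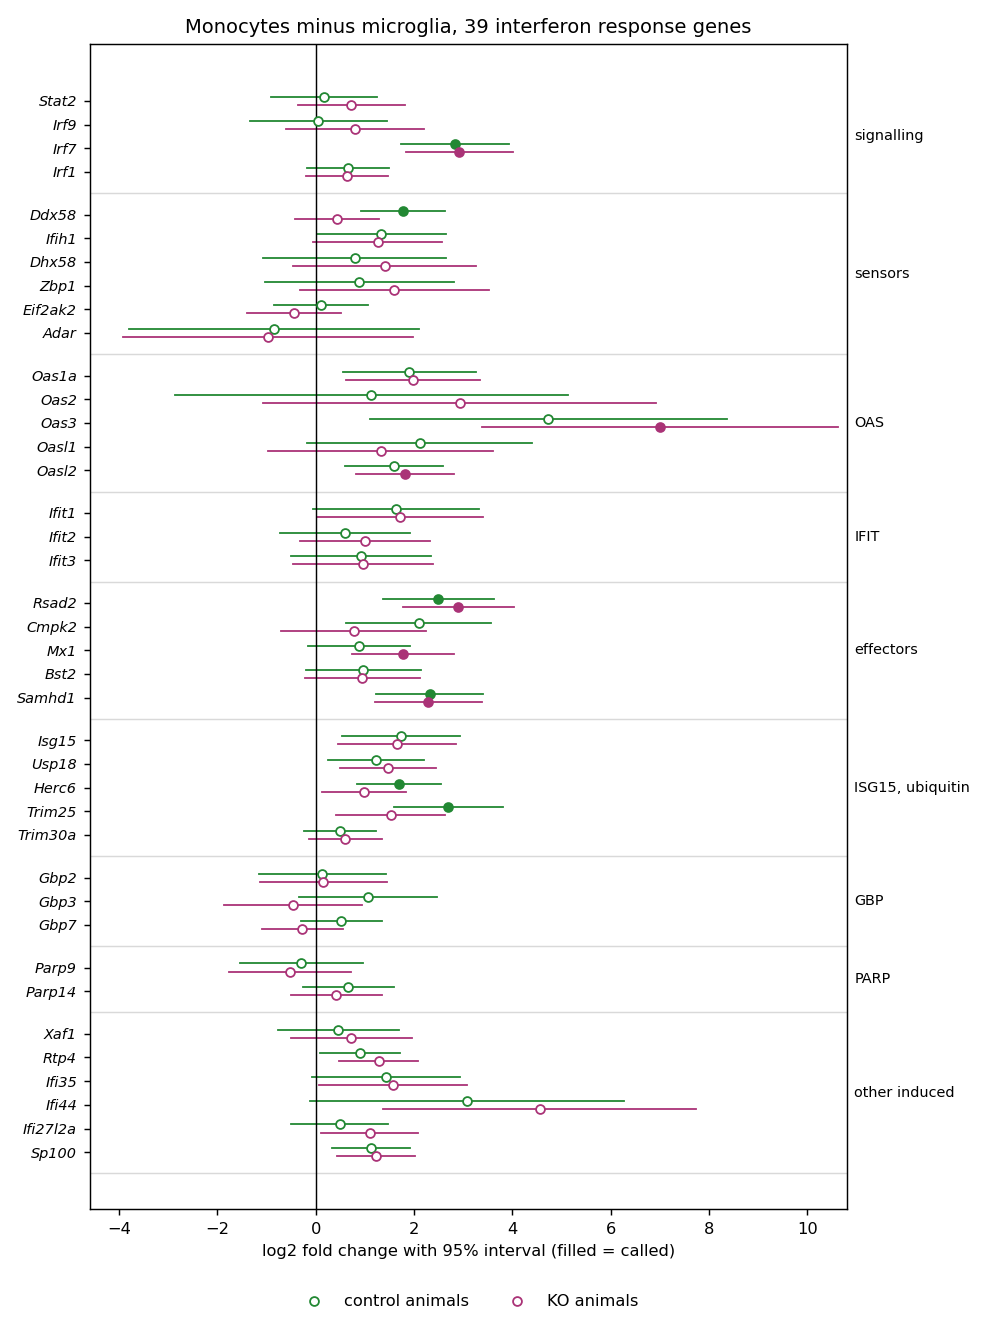
Monocyte minus microglia log2 fold change of the 39 members with its 95% interval, in control (green) and KO (magenta) animals, grouped by role; filled points were called. Points lie right of 0 for 37 of 39 members in control and 34 of 39 in KO animals; the guanylate-binding genes run from 0.13 to 1.07 in control and from -0.47 to 0.15 in KO animals, and none of them nor of the PARP genes is filled.

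Counted by overlap, 17 of 39 members had every control monocyte library above every control microglia library, where 9.6% of tested genes did, and 19 of 39 did so in KO animals, where 12.7% did. As an addition made after the values were seen, the population difference was averaged over both genotypes in the same fit. This called 15 of 39 members higher, against a background of 6.99%, and none lower at an adjusted or unadjusted p under 0.05. The 15 were the 9 named above with Sp100, Oas1a, Isg15, Usp18, Rtp4 and Ifi44. It reuses the libraries of both single comparisons and is no separate evidence. All members of the guanylate-binding, PARP and IFIT groups stayed without a call, though edgeR and DESeq2 called Ifit1.

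Within the Cre monocyte groups the members tended to shift together by library, and in microglia they did so less. For each library, the median over the 39 members of the deviation from the group mean was taken on the log2 scale; within a group these deviations nearly cancel. Control monocytes 1 to 3 stood at 0.28, -0.64 and 0.52, and KO monocytes 1 to 3 at 0.59, -0.64 and 0.02. Over all tested genes the same measure lay between -0.13 and 0.12 in every Cre library. Control monocytes 2 was the lowest of its group in 33 of 39 members and KO monocytes 2 in 31 of 39, while KO monocytes 1 was the highest in 31 of 39. Control microglia stood at 0.11, -0.34 and 0.33 and KO microglia at -0.45, 0.31 and 0.14. Their members were more mixed. Control microglia 1 was the highest in 16 and the lowest in 8 of 39 members, and control microglia 3 in 21 and 8. KO microglia 2 was the highest in 20 and the lowest in 7. Control microglia 2 was the lowest in 23 and KO microglia 1 in 26. In all 4 groups the lowest library was the 1 whose mouse gave no library of the other population. By this median, control mouse 3 and the mouse of KO monocytes 1 stood highest in both of their libraries. Over the 39 members, however, deviations of paired libraries correlated at -0.23 and -0.19 for control mice 1 and 3. For the mice of KO monocytes 1 and KO monocytes 3 the correlations were 0.07 and 0.15. Control monocytes 2 held 10.4 M reads and KO monocytes 2 held 56.8 M, and the part of depth in this ordering was not tested. No test was made of this ordering, which was seen in the data.

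**Figure D3:**
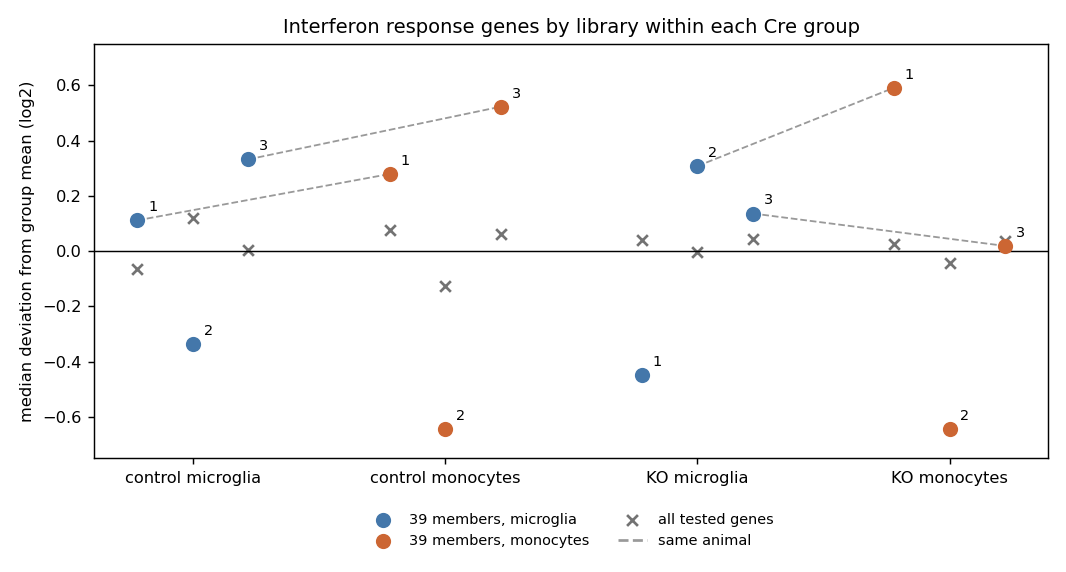
Median deviation of the 39 members from their group mean (log2) in each Cre library, as filled points numbered by library; crosses give the same for all tested genes, and dashed lines join libraries of 1 mouse. Monocytes 2 of both genotypes stand at -0.64, while the crosses lie between -0.13 and 0.12.

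In Cxcr4-GFP mice the same population comparison gave no call by limma among the 35 tested members, against a background of 0.415% of 7706 tested genes called higher. There were 6 of 35 with an unadjusted p under 0.05, all higher in monocytes; edgeR called none and DESeq2 called Rsad2. The log2 difference was positive for 28 of 35, with a median of 1.30 against 0.51 over all tested genes. Single libraries moved both medians: leaving out GFP microglia 4 gave 0.77 against -0.10, and leaving out GFP monocytes 3 gave 2.44 against 1.44. The smallest p belonged to Oasl2, Trim25, Rsad2, Irf7 and Oas2. All GFP monocyte libraries lay above all GFP microglia libraries for those 5 and for Dhx58, 6 of 35, where 5.22% of tested genes did.

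Irf7 stood at 56.8, 44.8, 127 and 0 in GFP microglia and at 198, 449, 234 and 351 in GFP monocytes, a log2 difference of 3.60 (SE 1.42, adjusted p 0.408). Rsad2 stood at 20.7, 12, 3.75 and 1.48 in microglia and at 76.4, 108, 229 and 238 in monocytes, a difference of 4.27 (SE 1.68, adjusted p 0.406). The populations were apart for both genes, and the microglia libraries 3 and 4 were the lowest for Rsad2. Oasl2 stood at 38.7, 55.9, 139.9 and 7.41 in microglia and at 249, 367, 636 and 351 in monocytes, a difference of 3.23 (SE 1.13, adjusted p 0.265). Trim25 stood at 116, 111, 174 and 35.6 in microglia and at 552, 395, 678 and 436 in monocytes, a difference of 2.40 (SE 0.87, adjusted p 0.309). Samhd1 stood at 152, 137, 145 and 218 in microglia and at 508, 597, 9.25 and 649.5 in monocytes, so that GFP monocytes 3 alone fell below all microglia libraries.

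The 3 libraries with few detected genes stood apart for the members too. Members listed at 0 numbered 6 in GFP microglia 3, 16 in GFP microglia 4 and 14 in GFP monocytes 3 of the 35 tested, and none in the other 5 libraries. Without these 3 libraries, which leaves 2 microglia and 3 monocyte libraries, 14 of 35 members were called higher in monocytes, against a background of 8.41%. The differences were then 2.75 for Oasl2, 2.00 for Samhd1 and for Trim25, 2.62 for Irf7, 1.74 for Sp100 and 2.91 for Rsad2, and 5 of the 14 were among the 9 called within a single genotype of the Cre table. Using the 4 libraries with lower library numbers alone, from the pools of 2 and 5 mice, called 9 members, where 6.38% of tested genes were called higher, and using the 4 with higher numbers called none, where 0.117% were.

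Several called Cre members had GFP values of another kind. Ddx58 stood at 54.2, 105, 1.25 and 249 in GFP microglia and at 125, 105, 0 and 194 in GFP monocytes, and Herc6 at 43.9, 62.4, 59.9 and 0 and at 45.7, 13, 0 and 48.5. Neither differed beyond its spread, with log2 differences of -0.08 (SE 1.89) and -0.61 (SE 2.10). Mx1 stood at 56.8, 52.5, 1.25 and 0 in microglia and at 67.7, 61.4, 1.32 and 50.9 in monocytes. Oas3, not tested, stood at 2.58, 8.61, 1.25 and 0 in microglia and at 100.3, 114, 0 and 150.3 in monocytes, where 3 of 4 libraries were above all microglia. Of 35 members tested in both tables, 25 had a positive difference in GFP, control and KO animals. Over all tested genes the difference was positive for 4836 of 7706 in GFP, 5397 of 12432 in control and 5356 of 12432 in KO animals. The share of all genes positive in each of these comparisons at once was not counted.

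**Figure D4:**
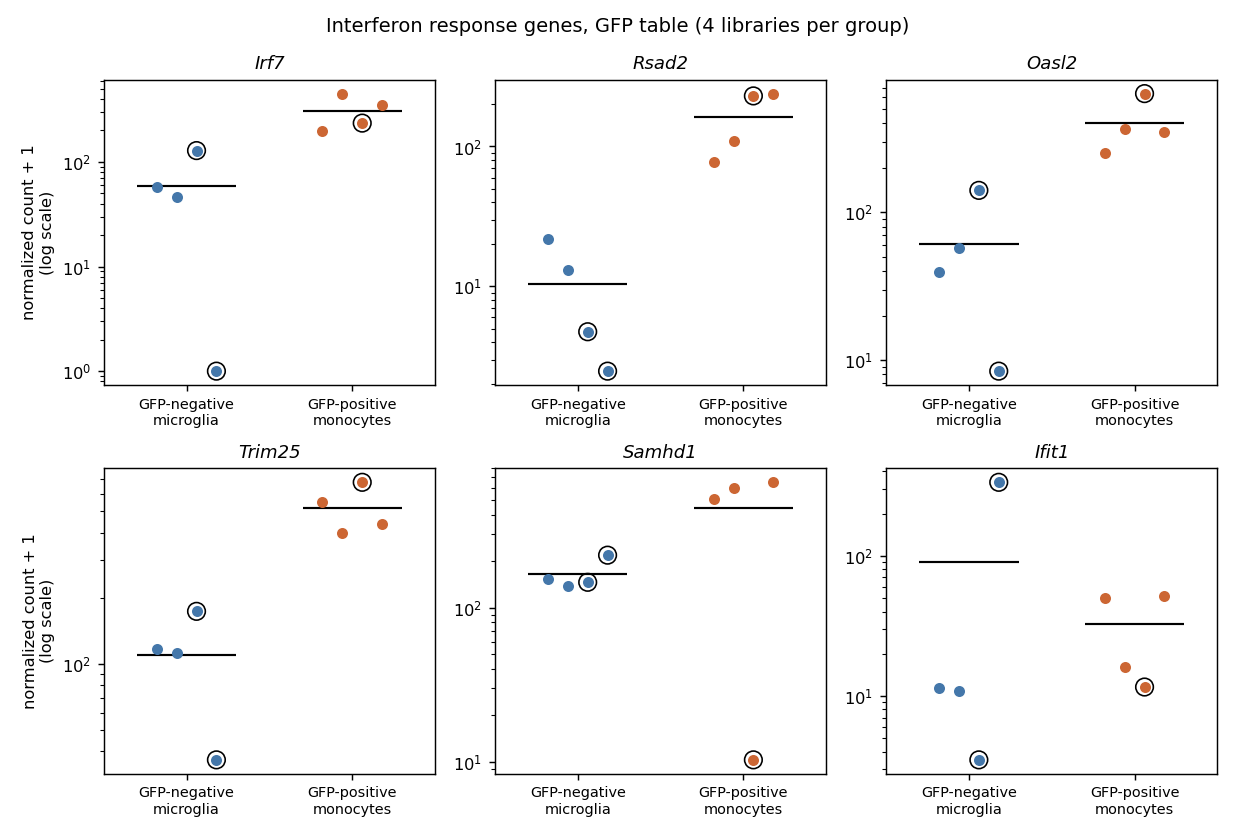
Normalized count + 1 (log scale) of 6 members in each GFP library; points are libraries (blue microglia, orange monocytes, in the order 1 to 4), bars are arithmetic means of 4 libraries, and circled points are the 3 libraries with few detected genes. For Irf7, Rsad2, Oasl2 and Trim25 all monocyte points lie above all microglia points; for Samhd1 and Ifit1 a circled library crosses over.

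The second comparison asked whether these genes differed between mice labelled KO and control in the Cre line, in monocytes and in microglia. In monocytes no member was called between KO and control animals by limma, none had an unadjusted p under 0.05, and edgeR and DESeq2 called none; the background was 0.0402% of tested genes called in either direction. The log2 difference was negative for 28 of 39 members, with a median of -0.17 against 0.05 over all tested genes. The sign of this median rested on single libraries, since it was 0.20 without KO monocytes 2, 0.03 without control monocytes 3 and 0.0019 without control monocytes 1, and -0.57 without control monocytes 2 and -0.54 without KO monocytes 1. The smallest p belonged to Gbp3 (-1.23, SE 0.64, unadjusted p 0.0805), Ddx58 (-0.45), Gbp7 (-0.44), Parp14 (-0.48) and Cmpk2 (-0.71). Gbp3, whose KO monocyte libraries at 1419.6, 279 and 1571 were all below the control libraries at 1617, 3052 and 1630.3, was the only member of 39 without overlap, against 8.81% of tested genes. The 95% intervals lay within 1 log2 unit of 0 for 3 of 39 members and within 2 for 30 of 39, so that a change of 2-fold could not be set apart from no change for most of them. Neutrophil marker sums in monocytes were 17926 to 42366 in control and 40237 to 71735 in KO animals, and their part in these values was not tested.

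In microglia no member was called between genotypes by limma, 1 of 39 had an unadjusted p under 0.05, and edgeR and DESeq2 called none, against a background of 0.0322%. The difference was negative for 24 of 39, with a median of -0.23 against 0.05 over all tested genes. It turned to 0.10 without KO microglia 1 and to 0.02 without control microglia 3, and was -0.39 without control microglia 2. Ddx58 had the smallest p, with a log2 difference of 0.89 (SE 0.39, 95% interval 0.04 to 1.75, limma unadjusted p 0.0424, adjusted p 1.0), followed by Trim25 (0.96), Rsad2 (-0.85), Oas3 (-2.39) and Oasl2 (-0.62). For 5 of 39 members the genotypes did not overlap in microglia, a count near the share of 9.46% over all tested genes. Nothing about the members as a set is read from this count. Ddx58, Herc6 and Trim25 were higher in every KO library and Rsad2 and Gbp2 lower. Ddx58, Herc6 and Trim25 were also those called between populations in control animals alone. The comparisons share the microglia libraries, so these observations are not independent. Intervals lay within 1 log2 unit of 0 for 4 of 39 members and within 2 for 29 of 39.

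Whether the genotype difference itself differed between monocytes and microglia was tested by the genotype-by-population term. No gene of the table was called by limma (0% of tested genes) or edgeR, while DESeq2 called 138 genes in each direction, and of the 39 members Ddx58 alone had an unadjusted p under 0.05 (-1.35, SE 0.56, limma unadjusted p 0.0324, adjusted p 0.999). Gbp3 (-1.54), Trim25 (-1.17), Gbp7 (-0.80) and Cmpk2 (-1.32) followed, and neither edgeR nor DESeq2 called a member. The calls made in 1 genotype alone, which are those of Trim25, Ddx58, Herc6, Oas3, Oasl2 and Mx1, are therefore not shown to differ between genotypes.

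**Figure D5:**
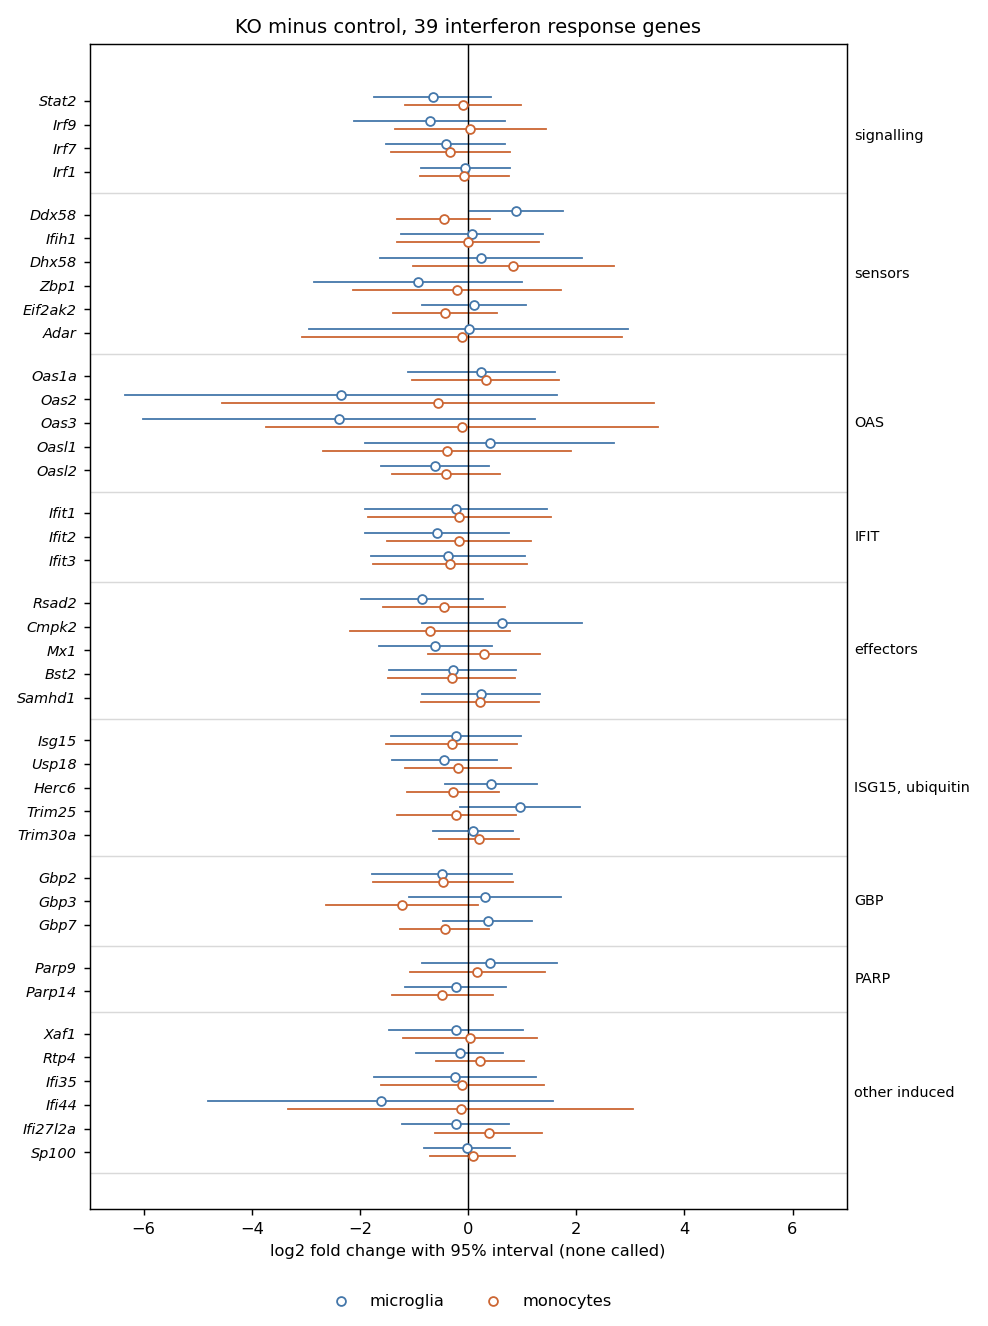
KO minus control log2 fold change of the 39 members with its 95% interval, in microglia (blue) and monocytes (orange), grouped by role; none was called. Intervals include 0 for 39 of 39 members in monocytes and 38 of 39 in microglia, where that of Ddx58 does not.

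The genes around the members were read in the same fits. Of 4 interferon genes in the Cre table only Ifnb1, interferon beta, passed the minimum level. Its lowest, middle and highest values were 147, 535 and 1355 in control microglia and 0, 116 and 157 in control monocytes, and 252, 1305 and 1655 in KO microglia and 0.375, 7.35 and 296 in KO monocytes. The direction was thus opposite to that of the members, with microglia higher, but the log2 differences of -4.17 (SE 2.15, adjusted p 0.32) and -5.76 (SE 2.15, adjusted p 0.154) did not pass and the populations overlapped in both genotypes. Averaged over both genotypes, the addition described above, Ifnb1 was called lower in monocytes (-4.97, SE 1.52, adjusted p 0.0492). In the GFP table Ifnb1 reached at most 1.29 and was not tested.

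Of all tested genes, 3.46% were called higher in control and 3.85% in KO monocytes. Of 8 genes of the receptors and their signalling, 1 (12.5%) rose in monocytes in each genotype. It was Jak2, a kinase of the interferon gamma and cytokine receptors, with a lowest, middle and highest value of 270.0, 399.8 and 709 in control microglia and 1418, 1646 and 1917 in control monocytes, and with log2 differences of 1.95 (adjusted p 0.0225) and 1.68 (adjusted p 0.0441). Ifnar1 and Ifnar2, the receptor chains, were not called. A share that rests on 1 called gene is not read as a result about the list. Among 13 tested genes of interferon induction none was called by limma in either genotype, with 3 at an unadjusted p under 0.05 in each. In control animals Tank, an adaptor of the kinases that activate interferon factors, had the smallest p, at 2.03 (adjusted p 0.051), and Tmem173 (STING, the sensor of cyclic dinucleotides) the next, at -1.98 (adjusted p 0.0525). Averaged over both genotypes, Tank rose by 2.00 while Tmem173 fell by 1.35 and Tlr3, the endosomal sensor of double-stranded RNA, fell by 4.13, with adjusted p of 0.00499, 0.0368 and 0.0165. Of the 13 genes these are 7.69% higher and 15.4% lower, against 6.99% and 7.27% of all tested genes.

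Of 11 genes listed as negative regulators 1 (9.09%) rose in KO animals, where 3.85% of all tested genes were called higher. None was called in control animals, where the share was 3.46%, and 3 had an unadjusted p under 0.05. The gene called in KO animals was Isg20, at 3.02 (SE 0.74, limma adjusted p 0.0292). It encodes an interferon-induced RNA exonuclease known as an antiviral effector and not as an inhibitor of the pathway. Of 47 further interferon-induced genes, 2 rose and 1 fell in control monocytes, and 4 rose and 1 fell in KO monocytes. These counts are 4.26% higher and 2.13% lower in control and 8.51% and 2.13% in KO animals, against 3.46% and 3.06% and 3.85% and 2.98% of all tested genes, so the control shares lay near the background. Ms4a4c, a membrane protein, rose from 1059, 2365 and 4899 in control microglia to 32656, 58919 and 61968 in control monocytes (lowest, middle and highest), by 4.42 (SE 0.63, adjusted p 0.00155). Nlrc5, the activator of class I genes, rose by 1.73 and 1.31, and Nmi by 2.08 in KO animals. Ccl12, a chemokine that attracts monocytes, was the gene that fell: its control values were 51551, 75939 and 142701 in microglia and 7663, 11531 and 14825 in monocytes, a difference of -2.91 (SE 0.38, adjusted p 0.000771), and in KO animals it fell by 2.14.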

How the data were processed

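The deposited values are a signal, namely gene counts normalized with DESeq2 size factors, which the authors made from CASAVA 1.82 output (GFP table, total RNA, Nugen Ovation SoLo) or with bcl2fastq 2.20 and kallisto (Cre table, polyA RNA, SMART-Seq2), per the submitters' processing notes and the labels' protocols. The genome build is not given in the sources used here. All values (100.0%) lay within 0.01 of whole reads, which were recovered for the count tests.

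The log2(value + 1) of each gene was tested in limma 3.58.1 (R 4.3.3; moderated, two-sided, intensity trend) over 7706 GFP genes (2 groups) and 12432 Cre genes (4 groups with 1 spread), with calls at p under 0.05 after Benjamini-Hochberg adjustment over the whole table. For low genes the size of a fold on this scale depends on the pseudocount, as given above for Oas3 in KO animals. Intervals are 95%. Levels come from library depths of 0.617 to 56.8 M reads; a single read equals 0.104 to 2.58 normalized counts. Libraries are separate mice or pools. The labels tie libraries of the same animal or pool, which supplied the replicate block. Over all tested genes, deviations of paired libraries correlated at -0.11 to 0.24 in the GFP table and -0.06 to 0.01 in the Cre table. Alternatives were pseudocount, filter, scaling, edgeR 4.0.16, DESeq2 1.42.0, the block, leaving out libraries and fitting only the groups compared. The fit was tested on simulated data.

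The members, lists and rules were chosen with earlier results of these data known. Values by library are given for members called in at least 1 planned comparison and, in role groups with none, for the member with the smallest p in control animals; comparisons with fewer than 5 calls name the 5 smallest p; pathway genes are named when called, or else the 2 with the smallest p. Isg15, Gbp2, the 30-base promoter stretches outside Rsad2 and Ddx58, and Ifit1bl1, which is not described, depart from this after values were seen. No source used here says whether counting used strand, and reads of overlapping genes cannot be told apart.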

Additional observations from a re-analysis of the deposited data

Results flagged for a closer look

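Of 26 sets of 4 GFP libraries examined (13 members in 2 groups), 2 held a library far from the others by Dixon's 95% criterion; chance alone gives about 1 in 20. Ifit1 stood at 333 in GFP microglia 4, against 2.50 to 10.3 in the other 3. Sp100 stood at 1147 in GFP monocytes 3, against 249.6 to 347 in the others. Both are libraries with few detected genes.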

How the results depend on the processing

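In control animals the 6 members called higher became 11 with DESeq2 (6.05% of all genes called higher, against 3.46% by limma), 3 with only the 2 groups compared (1.78% of all genes) and 2 to 9 when 1 library was left out (3 without control monocytes 1, 2 without control microglia 3 or control monocytes 3, 9 without control monocytes 2, 4 without control microglia 2). In KO animals the 6 became 11 with DESeq2 (6.44% of all genes, against 3.85%) and 2 to 5 when 1 library was left out (2 without KO microglia 1, KO monocytes 1 or KO monocytes 3, and 3 without KO microglia 2). When 1 library was left out, the share of all genes called higher was 2.4% to 3.2% in control and 2.19% to 2.9% in KO animals. Irf7 and Trim25 in control animals, and Irf7 and Rsad2 in KO animals, kept their call in each of 6 such fits; Ddx58 kept it in 4, Rsad2 in control animals in 3, Samhd1 in each genotype and Oasl2 in 2, Herc6 and Oas3 in 1 and Mx1 in none. Averaged over both genotypes, the 15 calls ranged from 13 to 21, while the share of all genes called higher ranged from 4.99% to 9.93%. The GFP count of 0 became 1 with DESeq2, 14 without GFP microglia 3, GFP microglia 4 and GFP monocytes 3, and 9 with the lower library numbers alone, and stayed 0 when single libraries were left out. The 0 calls between genotypes and for the genotype-by-population term held under all alternatives run. With the replicate block, the counts were 6 in control, 5 in KO and 0 in GFP animals, and Mx1 in KO animals was the call that changed. No called difference changed sign. CPM scaling moved the median of all genes from -0.24 to -0.40 in control and from -0.25 to -0.48 in KO animals, and turned the calls over all genes from 430 higher and 380 lower to 363 and 432 in control animals and from 479 and 370 to 375 and 460 in KO animals; over both genotypes they went from 869 and 904 to 693 and 1108; 5 and 4 members stayed called higher in control and KO animals.

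Groups of 3 or 4 libraries limit precision, and in the GFP libraries of few detected genes many values rest on under 10 reads (22 of 39 members in GFP microglia 3, 27 in GFP microglia 4 and 24 in GFP monocytes 3). Values were treated as reads and not as molecules, so read numbers give counting error only.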
